A study of Mus musculus with 4 samples.

Results

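Matrix metalloproteinases (MMPs), the ADAMTS proteases and the tissue inhibitors of metalloproteinases (TIMPs) were followed in mouse embryonic fibroblasts (MEFs) that were being reprogrammed to pluripotency with or without an activatable AKT kinase. The rule for the genes used their names and no measured value: every non-control probe of the microarray was taken whose gene symbol was Mmp, Adamts or Timp followed by its number. This gave 66 probes of 46 genes, of 34964 named genes or transcripts in all, namely 23 Mmp, 19 Adamts and 4 Timp genes. All cells were male MEFs from E13.5 embryos of an Oct4-EGFP transgenic line, with several embryos mixed in 1 culture, and all received retroviral Oct4, Sox2 and Klf4 (OSK). The OSKA cells received in addition AKT-MER, a myristoylated AKT fused to a modified estrogen receptor that is switched on by 4-hydroxytamoxifen (4OHT). From 3 days postinfection (dpi) the cells were given 4OHT or the ethanol vehicle, and RNA was taken at 8 dpi. The 4 groups OSK − 4OHT, OSK + 4OHT, OSKA − 4OHT and OSKA + 4OHT were each measured on 1 single-colour array, all on 1 slide. There was thus no replicate, no test between groups was possible, and every difference compares 2 arrays and not the conditions behind them. The sample description of the OSKA + 4OHT array states that AKT-MER was not active, against its title and the study's design, and the title was followed.

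MMPs are zinc endopeptidases, secreted or anchored at the cell surface as latent proenzymes, that together cleave most components of the extracellular matrix. The ADAMTS proteases are secreted relatives with thrombospondin repeats that cut proteoglycans, trim procollagens or process other matrix proteins, and the TIMPs bind the active site of the proteases and block them. Fibroblasts are a main source of these enzymes. Several MMP promoters are known to be driven by AP-1, the dimer of Fos and Jun proteins, and by ETS factors.

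A level is the log2 of a probe's intensity minus that of its array's 75th percentile, so that 0 is the 75th percentile and 1 unit is a doubling. A probe was called measured where the scanner software marked it well above background. A gene was represented by its probe with the highest mean level, and levels of different probes are not comparable with each other. The software error given with a log2 difference combines the scanner software's errors on the 2 arrays; it covers the measurement on an array but not the culture, and lay between 0.20 and 0.41 for the members. Of the 46 genes, 29 were measured on all 4 arrays, 4 on some of them (Mmp9, Mmp24, Mmp28 and Timp4) and 13 on none. The members measured numbered between 30 and 31 on each array. Across all spots, between 52.4% and 55.4% were well above background, and the 75th percentile lay between 377 and 462 intensity units. The Esr1 probe, which can hybridise to the receptor part of AKT-MER, stood at 3.11 on the OSKA − 4OHT and 3.32 on the OSKA + 4OHT array and was not above background on either OSK array. All 8 fibroblast markers, among them Col1a1, Col1a2 and Vim, were measured on every array. Of 10 macrophage and neutrophil markers, 9 were measured on every array as well, including Csf1r, Adgre1 and Cd68, while the neutrophil gene Mpo was on none. In such bulk RNA, fewer cells of a type and less RNA per cell cannot be told apart.

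Of the Mmp genes, 10 sit together on mouse chromosome 9, where their probes span chr9:7282762-7697700 (NCBI37). Mmp13, Mmp1b, Mmp3 and Mmp27 of this cluster were measured on all 4 arrays, and Mmp12, Mmp1a, Mmp10, Mmp8, Mmp20 and Mmp7 on none. RefSeq start-site windows (GRCm38.p6) were at hand for 32 of the 46 genes, and the 250 bases before each start were searched on both strands for the AP-1 motif TGANTCA and the ETS motif AGGAAGT. Neither motif contains the other. The AP-1 motif was found in 8 of the 32 members (25.0%) and in 7.82% of 27025 genes. All 8 lay in the chromosome 9 cluster, where 8 of 10 genes held a match, and 0 of the 22 other members with a window did. Mmp2, Mmp9, Mmp16, Mmp17, Mmp19, Adamts4, Adamts5, Adamts6, Adamts7, Adamts8, Adamts10, Adamts15, Adamts16 and Adamts19 had no window at hand and were not searched. A match was present whether or not the gene was measured: 3 of the 8 genes (Mmp13, Mmp1b and Mmp3) were measured on all arrays, and the other 5 (Mmp12, Mmp1a, Mmp10, Mmp20 and Mmp7) on none. The ETS motif was found in 6 members (18.8%) and in 8.80% of all genes. The windows below cover the 120 bases before the start on the gene's own strand, with AP-1 and ETS matches in capitals, and are shown because the first 3 belong to measured genes and the last 2 to neighbours that were not measured.
Mmp13 (chr9:7272394-7272513, plus strand): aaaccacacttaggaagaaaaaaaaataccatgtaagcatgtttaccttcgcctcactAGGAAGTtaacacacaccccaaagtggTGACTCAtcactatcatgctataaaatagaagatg
Mmp3 (chr9:7445702-7445821, plus strand): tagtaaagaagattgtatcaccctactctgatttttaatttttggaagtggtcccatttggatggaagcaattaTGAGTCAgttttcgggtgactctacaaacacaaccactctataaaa
Mmp1b (chr9:7388027-7388146, minus strand): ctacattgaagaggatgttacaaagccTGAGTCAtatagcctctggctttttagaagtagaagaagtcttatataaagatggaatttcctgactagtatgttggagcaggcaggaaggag
Mmp1a (chr9:7464021-7464140, plus strand): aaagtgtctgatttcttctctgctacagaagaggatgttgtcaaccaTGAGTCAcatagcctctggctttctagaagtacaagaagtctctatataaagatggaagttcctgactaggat
Mmp10 (chr9:7502222-7502341, plus strand): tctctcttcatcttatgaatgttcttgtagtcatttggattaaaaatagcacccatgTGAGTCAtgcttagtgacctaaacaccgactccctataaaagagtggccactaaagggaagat
The first base of the AP-1 match lay 35 bases before the start of Mmp13, 46 before that of Mmp3 and 93 before that of Mmp1b. It lay 73 bases before the start of Mmp1a and 63 before that of Mmp10. From the first base of the match on, Mmp1a and Mmp1b, the rodent relatives of human interstitial collagenase, shared 37 of 40 bases. The one was not above background on any array and the other was measured on all 4.

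**Figure D1:**
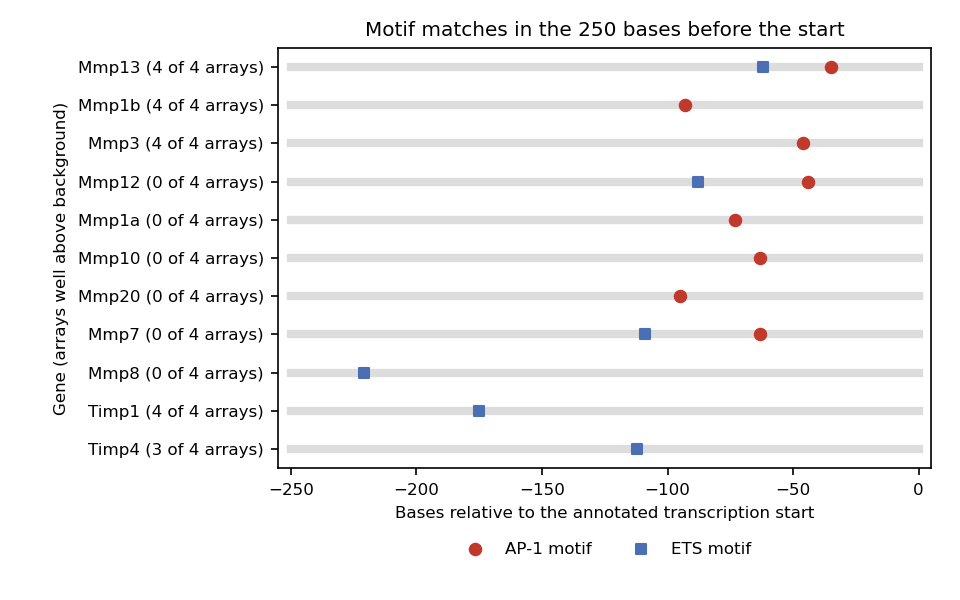
Positions of AP-1 matches (red circles) and ETS matches (blue squares) in the 250 bases before the annotated start for the 11 members that held either motif. The label gives the number of arrays on which the gene was measured. The 2 matches of Mmp12 belong to 2 separate start sites.

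The proteases Mmp9, Adamts4 and Adamts8 and the inhibitor Timp4 each differed by 2-fold or more between arrays, and their probes are given here by position (NCBI37) and by the first 30 of their 60 bases. Mmp9 and Timp4 are shown because they were measured on some of the arrays only. The probes of Adamts4 and Adamts8 are shown in pairs because the 2 probes of Adamts4 moved alike and those of Adamts8 did not.
Mmp9 (chr2:164780620-164780679): ccaaccttttccagctactttagtcaatca
Timp4 (chr6:115196120-115196179): ccagcaaatggaggctgtggggcatgtgac
Adamts4 (chr1:173190709-173190768): aatgagaggaacaggatgtggtctggtatt
Adamts4 (chr1:173189952-173190011): cgcatctttgagcattagttttctcatgtg
Adamts8 (chr9:30751050-30751109): cagaagactcccgcaaagtgccaccaccct
Adamts8 (chr9:30770384-30770443): acccatttcaagtatttatgcaaatatgtc

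The gelatinases degrade denatured collagen and basement membrane collagen, and their pair of genes behaved differently here. Mmp2, gelatinase A, stood at 4.44 in OSK − 4OHT, 4.39 in OSK + 4OHT, 4.45 in OSKA − 4OHT and 4.25 in OSKA + 4OHT cells. Its 4 levels thus lay close together on all arrays. Mmp9, gelatinase B, averaged -6.66 in OSK − 4OHT, -6.53 in OSK + 4OHT, -6.23 in OSKA − 4OHT and -3.03 in OSKA + 4OHT cells. It was measured only on the array of OSKA cells given 4OHT. The Mmp9 probe was printed 10 times on the array, which gives a measure of the error within an array but not between cultures. On the OSKA + 4OHT array all 10 spots were well above background, with levels from -3.22 to -2.89 and a median of -3.07. On the OSKA − 4OHT array 0 of 10 spots were, with levels from -7.08 to -5.16 and a median of -6.49. On the OSK + 4OHT array 0 of 10 spots were above background (-6.86 to -5.92), and on the OSK − 4OHT array 0 of the 8 spots that were not marked as outliers (-6.97 to -6.19). The highest spot of the other 3 arrays therefore lay below the lowest spot of the OSKA + 4OHT array. Set against the lowest level measured on the other array, Mmp9 was at least 3.66-fold higher with 4OHT in OSKA cells and at least 2.85-fold higher in OSKA + 4OHT than in OSK + 4OHT cells. Both bounds use the OSKA + 4OHT array and are not independent of each other. After normexp background correction and quantile normalization they fell to 0.60 and 0.52 on the log2 scale, under 2-fold. That setting adds an offset of 50 intensity units to every spot, and the Mmp9 spots had a median of 45.5 units on the OSKA + 4OHT array. It therefore cannot decide whether a 2-fold bound holds for so dim a probe.

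**Figure D2:**
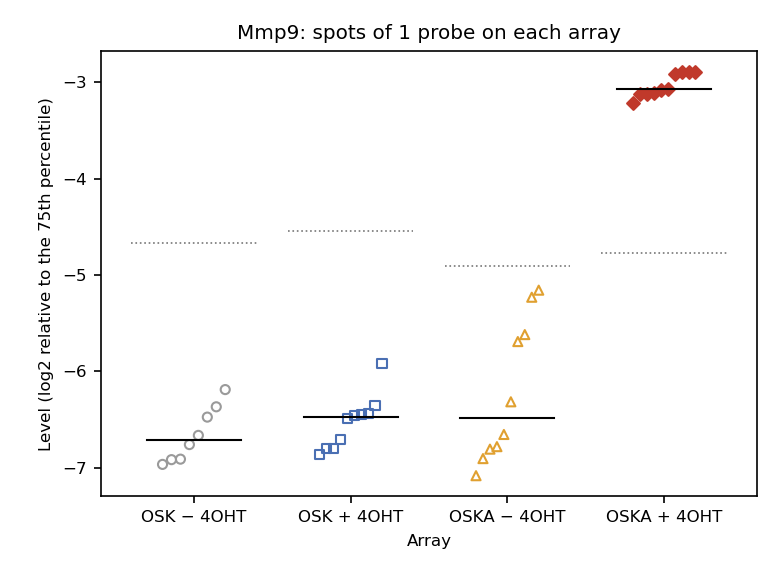
Level of each Mmp9 spot (log2 relative to the array's 75th percentile) on the 4 arrays, ordered by value within an array, with the median as a black bar. Filled symbols were well above background, and the dotted line is the lowest level measured on that array: all 10 spots of the OSKA + 4OHT array lie above it and all spots of the other arrays below it.

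Mmp9 is made in large amounts by neutrophils and macrophages. The summed level of the 10 macrophage and neutrophil markers was 195 times the 75th percentile in OSK − 4OHT, 267 in OSK + 4OHT, 260 in OSKA − 4OHT and 230 in OSKA + 4OHT cells. This sum on the array with measured Mmp9 lay within the range of the other 3. With 4OHT in OSKA cells 3 of the 9 measured markers were higher and 6 lower, with a median log2 difference of -0.17. The neutrophil genes Elane and Ly6g were among the 3 higher, by 0.45 and 0.28 on the log2 scale. Elane stood at 0.11, 0.29, -0.09 and 0.35 in the order above and Ly6g at 2.20, 1.93, 1.63 and 1.90, so that Elane was highest on the array with measured Mmp9. The part of such cells in the Mmp9 level was not tested. The macrophage metalloelastase Mmp12 and the neutrophil collagenase Mmp8 were not above background on any array.

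The collagenases cut fibrillar collagen. Mmp13, collagenase-3, stood at 0.33 in OSK − 4OHT, 0.98 in OSK + 4OHT, 0.41 in OSKA − 4OHT and 0.90 in OSKA + 4OHT cells. Both arrays with 4OHT were higher than both without it, by 0.65 in OSK and 0.48 in OSKA cells on the log2 scale. Mmp1b, a paralog of the mouse collagenase Mmp1a, stood at -2.65, -3.40, -3.79 and -3.96 in the same order. It was highest in OSK − 4OHT cells and 2.20-fold lower in OSKA − 4OHT cells (log2 difference -1.14, software error 0.28). Mmp1a and Mmp8 were not above background on any array.

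The stromelysins cut proteoglycans and other matrix proteins and activate further MMPs. Mmp3, stromelysin-1, stood at 4.09 in OSK − 4OHT, 4.40 in OSK + 4OHT, 3.49 in OSKA − 4OHT and 3.40 in OSKA + 4OHT cells. Both arrays of OSKA cells were lower than both arrays of OSK cells. The log2 difference between OSKA and OSK cells was -0.60 without and -0.997 with 4OHT (software error 0.20 each), so that the latter fell just short of 2-fold. Scaling on spike-in controls, RNAs added in known amounts, shifts these 2 comparisons by -0.44 and -0.12 for every gene. With it both Mmp3 differences passed 2-fold. Mmp11, stromelysin-3, ranged from 3.20 to 3.38, and its 2 probes gave nearly the same differences. Mmp10, the matrilysin Mmp7 and Mmp12 were not above background on any array.

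The membrane-type MMPs act at the cell surface, and Mmp14 among them activates the Mmp2 proenzyme. Mmp14 stood at 2.37 in OSK − 4OHT, 2.49 in OSK + 4OHT, 2.66 in OSKA − 4OHT and 2.87 in OSKA + 4OHT cells, and Mmp17 ranged from -1.26 to -0.82. Both levels were higher on the OSKA arrays than on the OSK arrays, by 0.27 to 0.43 on the log2 scale. When the arrays were scaled on the spike-in controls, RNAs added in known amounts, instead of the 75th percentile, this direction held for both genes with 4OHT and turned for both without it. Mmp15 stood at -3.63, -4.18, -4.04 and -3.34 in the same order of arrays. With 4OHT it was higher by 0.69 in OSKA cells and lower by 0.55 in OSK cells, with software errors of 0.30 and 0.36. Mmp24 was measured on the OSKA − 4OHT array alone (-4.47), and Mmp16 and Mmp25 on none.

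Of the other MMPs, Mmp19 stood at -2.54 in OSK − 4OHT, -2.33 in OSK + 4OHT, -1.85 in OSKA − 4OHT and -1.68 in OSKA + 4OHT cells. Both OSKA arrays were higher than both OSK arrays. Mmp23 ranged from 2.30 to 2.82 and was highest in OSKA − 4OHT cells. Mmp27 stood at -2.66, -1.88, -2.15 and -2.25 in the same order, and was 1.72-fold higher with 4OHT in OSK cells. Mmp28, epilysin, was measured in OSKA − 4OHT cells alone (-3.46). It was at least 2.13-fold lower in OSKA + 4OHT cells, where it was not above background (-4.55). The second Mmp28 probe stood at -4.96, -5.12, -5.17 and -4.21 in the same order and was not above background on any array. Mmp20, an enzyme of tooth enamel, and Mmp21 were not above background on any array.

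The proteoglycan-cleaving ADAMTS proteases cut aggrecan, versican and related proteoglycans, and Adamts4 (aggrecanase-1) was the member of this group whose 2 probes both differed by 2-fold or more, in the same direction, between the arrays with 4OHT. Its brighter probe stood at 2.12 in OSK − 4OHT, 1.90 in OSK + 4OHT, 2.28 in OSKA − 4OHT and 3.07 in OSKA + 4OHT cells. Its other probe stood at -0.06, -0.54, 0.13 and 0.87. Both probes were highest in OSKA + 4OHT and lowest in OSK + 4OHT cells. The brighter probe was 2.25-fold and the other 2.66-fold higher in OSKA + 4OHT than in OSK + 4OHT cells (software error 0.20 and 0.21 on the log2 scale). With 4OHT, Adamts4 was 1.72-fold and 1.67-fold higher in OSKA cells by the 2 probes, and lower by 0.23 and 0.47 on the log2 scale in OSK cells.

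The 2 probes of Adamts8, also an aggrecan-cleaving enzyme, disagreed. The probe with the higher mean level stood at -4.05 in OSK − 4OHT, -2.96 in OSK + 4OHT, -3.88 in OSKA − 4OHT and -4.27 in OSKA + 4OHT cells. By it, Adamts8 was 2.12-fold higher with 4OHT in OSK cells and 2.48-fold lower in OSKA + 4OHT than in OSK + 4OHT cells (software error 0.35 and 0.37 on the log2 scale). The other probe stood at -4.01, -4.73, -4.60 and -2.37 and was measured in OSK − 4OHT and OSKA + 4OHT cells only. By that probe Adamts8 was at least 4.72-fold higher with 4OHT in OSKA cells and at least 4.53-fold higher in OSKA + 4OHT than in OSK + 4OHT cells. No direction is given for the gene, since the probes read opposite ways in the comparison of OSKA and OSK cells with 4OHT.

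**Figure D3:**
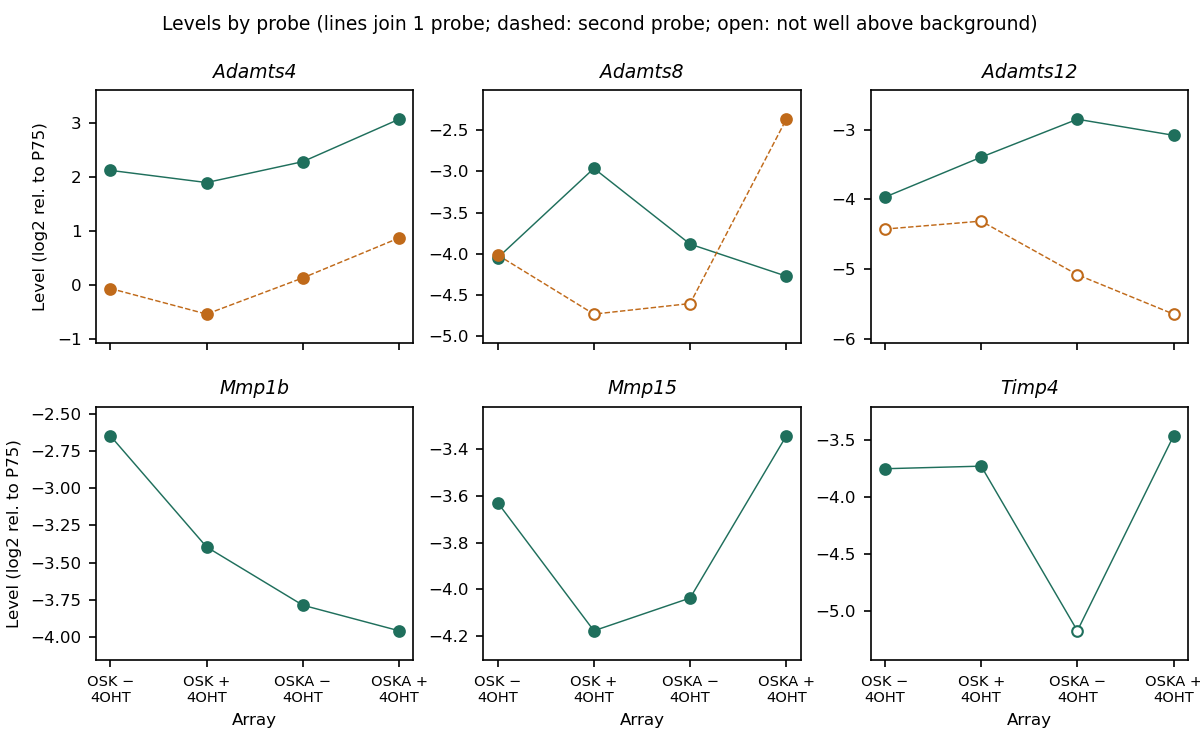
Levels (log2 relative to the array's 75th percentile) of 6 genes on the 4 arrays, 1 line for each probe and a dashed line for a second probe; open symbols were not well above background and each panel has its own vertical scale. The probes of Adamts4 run in parallel with their highest values in OSKA + 4OHT cells, whereas those of Adamts8 cross.

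The remaining proteoglycan-cleaving members varied less. Adamts1 stood at 4.09 in OSK − 4OHT, 4.49 in OSK + 4OHT, 4.76 in OSKA − 4OHT and 4.77 in OSKA + 4OHT cells, and Adamts15 at 2.15, 1.75, 1.97 and 2.50. Adamts1 was thus lowest on the OSK − 4OHT array, and Adamts15 was higher by 0.54 with 4OHT in OSKA cells and lower by 0.40 in OSK cells. Adamts5, aggrecanase-2, ranged from 1.43 to 1.94 and Adamts9 from -0.67 to -0.04. Adamts20 was not above background on any array.

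The procollagen N-propeptidases remove the amino-terminal propeptide of fibrillar procollagens. Adamts2 ranged from 4.20 to 4.56 and Adamts14 from 0.79 to 1.27. Adamts3 stood at -3.66 in OSK − 4OHT, -4.01 in OSK + 4OHT, -3.69 in OSKA − 4OHT and -3.08 in OSKA + 4OHT cells. All 3 genes were higher in OSKA + 4OHT than in OSK + 4OHT cells, by 0.36, 0.44 and 0.93 on the log2 scale, also with spike-in scaling. The second Adamts2 probe gave -0.01 for this difference.

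Adamts7 and Adamts12 cleave cartilage oligomeric matrix protein. Adamts12 stood at -3.97 in OSK − 4OHT, -3.39 in OSK + 4OHT, -2.85 in OSKA − 4OHT and -3.08 in OSKA + 4OHT cells. It was 2.17-fold higher in OSKA − 4OHT than in OSK − 4OHT cells (software error 0.34 on the log2 scale), and its second probe was not above background on any array. Adamts7 ran the other way, from 0.26 in OSK − 4OHT to -0.40 in OSKA − 4OHT cells. Of the other ADAMTS genes, Adamts10, a fibrillin-associated member, stood at -0.76, -0.997, -0.62 and -1.21 in the same order, and was lower by 0.59 with 4OHT in OSKA cells by its brighter probe and by 0.86 by the second. Adamts16 stood at -2.14, -2.57, -2.01 and -2.45, so that both arrays with 4OHT were lower than both without it. Adamts17 stood at 0.67, 0.14, 0.01 and 0.26, and was lower by 0.67 in OSKA − 4OHT than in OSK − 4OHT cells. Adamts6 ranged from -3.01 to -2.59. Adamts13, which cleaves von Willebrand factor, Adamts18 and Adamts19 were not above background on any array.

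All 4 inhibitors were measured. Timp2 stood at 8.72 in OSK − 4OHT, 8.73 in OSK + 4OHT, 8.89 in OSKA − 4OHT and 8.86 in OSKA + 4OHT cells, and Timp3, which is bound to the matrix, at 7.37, 7.37, 7.28 and 7.12. Neither differed by as much as 1.5-fold in any comparison. Timp1 stood at 5.33, 5.46, 5.49 and 6.07. It was highest in OSKA + 4OHT cells, by 0.58 over OSKA − 4OHT and by 0.61 over OSK + 4OHT cells on the log2 scale (software error 0.20 for both). Timp4 stood at -3.75, -3.73, -5.17 and -3.47 and was measured on every array except that of OSKA − 4OHT cells. It was at least 2.71-fold higher with 4OHT in OSKA cells and at least 2.22-fold lower in OSKA − 4OHT than in OSK − 4OHT cells. Both of these bounds rest on the one array on which Timp4 was dim, and after normexp correction and quantile normalization they were 0.36 and -0.28 on the log2 scale, under 2-fold. The offset of 50 intensity units in that setting shrinks the differences of dim probes such as this one.

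**Figure D4:**
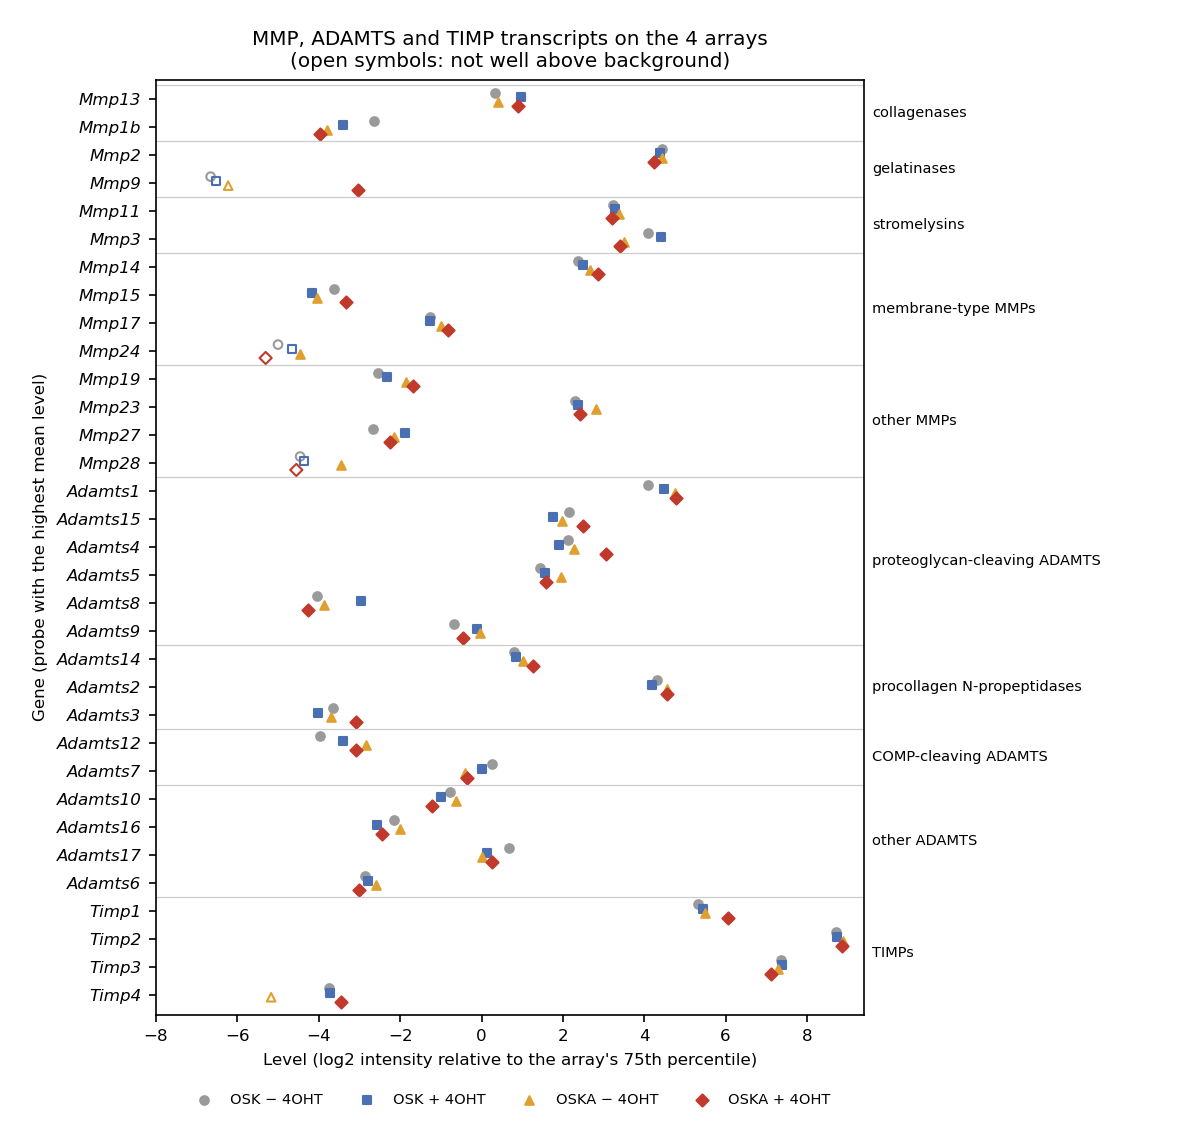
Levels of the 33 members measured on at least 1 array, by role (log2 intensity relative to the array's 75th percentile, 1 symbol for each array, open where not well above background). For 25 of the 29 members measured on all arrays the 4 levels lie under 2-fold apart, and Mmp9 stands apart on the OSKA + 4OHT array. Positions of different genes are not comparable, since each has its own probe.

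Over the 29 members measured on all arrays, the highest and the lowest of the 4 levels lay under 2-fold apart for 25, and 2-fold or more for 4 (Adamts4, Adamts8, Adamts12 and Mmp1b), against 6.89% of all genes measured on all arrays. The median of this range was 0.65 on the log2 scale, and 0.36 over those 19599 genes. For 9 members a second probe was measured on both arrays of at least 1 comparison. Adamts8, whose second probe was measured on 2 arrays that no comparison pairs, is not among them. Over the 31 comparisons of these 9 members, the probes gave the same direction in 24, and the median gap between them was 0.14 on the log2 scale, with the largest, 0.74, for Adamts17.

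The effect of 4OHT in OSKA cells is the comparison in which AKT-MER was meant to be switched on. None of the 29 members measured on the arrays compared (0 higher, 0 lower) reached 2-fold, where 2.01% of all genes were higher and 0.899% lower by that much. The members split into 14 higher and 15 lower, with a median log2 difference of -0.03, as over all genes (-0.03, with 45.2% higher). The largest differences were those of Adamts4 and Mmp15 (higher) and of Adamts10 and Adamts16 (lower). Of 4 members measured on 1 of the 2 arrays, 3 had a bound of 2-fold or more, Mmp9 and Timp4 higher and Mmp28 lower with 4OHT, against 22.9% of all genes measured on 1 array. These counts use the probe with the highest mean level of each gene. The second Adamts8 probe was at least 4.72-fold higher with 4OHT, where the first gave a log2 difference of -0.39. With normexp background correction and quantile normalization together, the bounds were 0.60 for Mmp9, 0.36 for Timp4 and -0.24 for Mmp28 on the log2 scale, all under 2-fold. The offset of 50 intensity units in that setting shrinks the differences of dim probes, so it cannot decide these bounds.

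The effect of 4OHT in OSK cells, which carry no AKT-MER, sets the OSK + 4OHT array against the OSK − 4OHT array. Among 30 measured members, Adamts8 was the 1 that was higher by 2-fold or more (by 1 of its 2 probes) and 0 were lower by that much, against 0.617% and 0.276% of all genes. The median log2 difference was 0.03, with 19 members higher and 11 lower, and it was -0.00 over all genes, of which 49.4% were higher. With spike-in scaling, which moved this comparison by -0.31 for every gene, 0 members were higher by 2-fold or more and 1 was lower (Mmp1b), and the split was 6 higher and 24 lower. The median was then -0.28 for the members and -0.32 over all genes, so the turned split follows from the common shift. After normexp correction and quantile normalization no member reached 2-fold (Adamts8 0.37), but the offset of that setting shrinks the differences of dim probes such as this one. No member was measured on 1 of the 2 arrays only, and 20.0% of all genes that were had a bound of 2-fold or more.

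**Figure D5:**
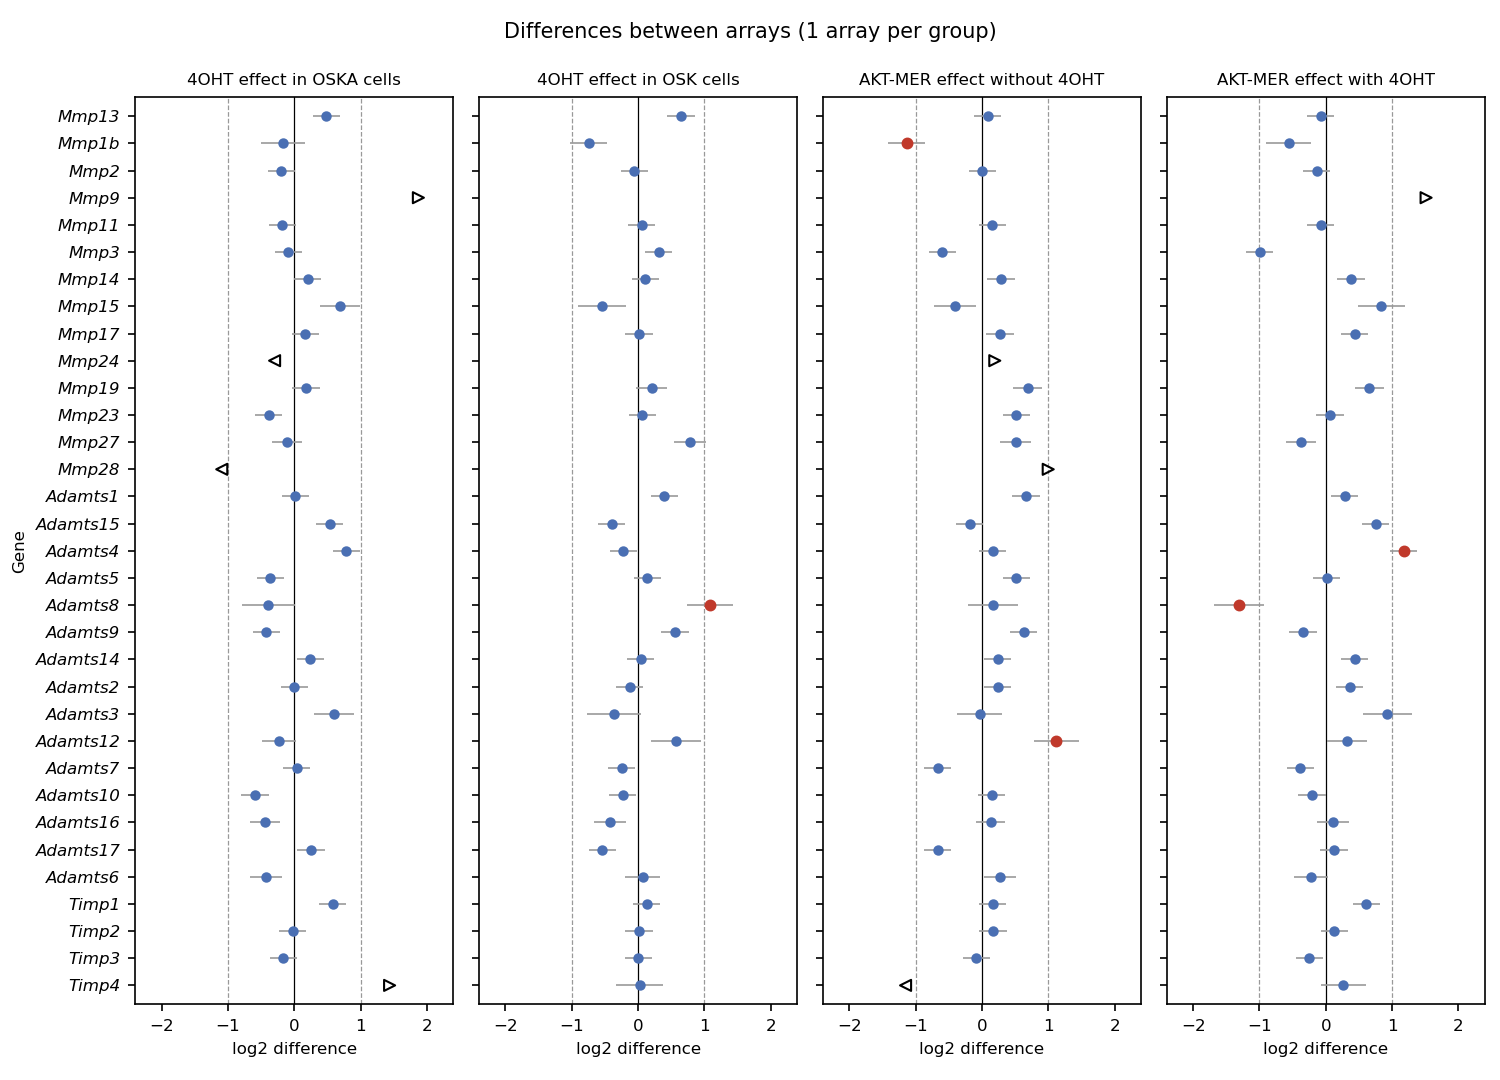
Log2 differences of the members in the 4 comparisons, with the software error as a bar, red where 2-fold or more (dashed lines mark 2-fold). Open triangles are bounds of genes measured on 1 of the 2 arrays and point away from the smallest difference allowed; Mmp9 carries the largest of them. Each pair of arrays has no replicate.

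The effect of AKT-MER without 4OHT sets OSKA − 4OHT against OSK − 4OHT cells. At the 2-fold threshold 1 of 29 members was higher (Adamts12) and 1 lower (Mmp1b), where 1.09% and 0.928% of all genes were. The median was 0.16, with 21 members higher and 8 lower, against -0.02 over all genes, of which 47.0% were higher. With spike-in scaling, which shifted all genes by -0.44, the members' median was -0.28 with 7 higher and 22 lower, and at 2-fold 0 were higher and 4 lower. Because the shift is equal for every gene, the place of the members relative to all genes did not change. The turned split follows from the shift and is no result about the family. After normexp correction and quantile normalization both calls ended (Adamts12 0.32, Mmp1b -0.49 on the log2 scale), with 0 members higher and 0 lower by 2-fold. Both probes are dim, and the offset of that setting shrinks the differences of dim probes. Of 3 members measured on 1 array, Timp4 alone had a bound of 2-fold or more, while those of Mmp24 and Mmp28 stayed under it, against 21.0% of all genes measured on 1 array.

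The effect of AKT-MER with 4OHT sets OSKA + 4OHT against OSK + 4OHT cells and shares 1 array with each comparison of 4OHT. At the 2-fold threshold 1 of 30 members was higher (Adamts4, by both probes) and 1 lower (Adamts8, by 1 probe, against the other), where 1.92% and 1.12% of all genes were. The median was 0.12, with 18 members higher and 12 lower, against -0.05 over all genes, of which 42.9% were higher. With spike-in scaling (shift -0.12) the counts at 2-fold were 1 higher and 2 lower and the median 0.00. After normexp correction and quantile normalization the call of Adamts4 held (1.13 on the log2 scale) and that of Adamts8 ended (-0.41). The Adamts8 probe is dim, and the offset of that setting shrinks the differences of dim probes. Mmp9 was the 1 member measured on 1 array, with its bound of 2.85-fold, against 24.4% of all genes so measured.

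Related genes were read from lists. In the plasminogen system, which activates several MMP proenzymes, 6 of 8 genes were measured on both arrays of OSKA cells. Of these, 1 was higher and 5 lower with 4OHT, none by 2-fold, with a median of -0.42 against -0.03 over all genes. Plau, which encodes urokinase, stood at -1.68 in OSK − 4OHT, -1.27 in OSK + 4OHT, -1.24 in OSKA − 4OHT and -1.68 in OSKA + 4OHT cells. It was thus higher with 4OHT in OSK cells and lower in OSKA cells. Serpinb2, an inhibitor of urokinase, was measured in OSKA + 4OHT cells alone (-3.78), with a bound of 1.12 on the log2 scale over OSKA − 4OHT cells. Of 16 activators, inhibitors and receptors of MMPs, 12 were measured, with a median of 0.01 for 4OHT in OSKA cells. One of them, Pcsk6, a proprotein convertase, was at least 2-fold lower: it stood at 2.82, 2.80, 2.59 and 1.28. Furin, which activates the membrane-type MMPs, ranged from 2.61 to 2.78, and the membrane-bound MMP inhibitor Reck from 0.03 to 0.48.

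All 6 ADAMTS-like genes, which encode matrix proteins without a protease domain, were lower with 4OHT in OSKA cells, between -0.77 and -0.04, with a median of -0.43. Over all genes, 45.2% were higher in this comparison and the median was -0.03. Adamtsl2 was at least 2-fold lower with 4OHT in OSK cells and stood at -1.85 in OSK − 4OHT, -4.17 in OSK + 4OHT, -2.61 in OSKA − 4OHT and -3.38 in OSKA + 4OHT cells. The 9 ADAM proteases, the membrane-anchored relatives, split into 6 higher and 3 lower with 4OHT in OSKA cells, with a median of 0.28 and none at 2-fold. Of the 12 AP-1 and ETS factors, 1 was higher and 11 lower, with a median of -0.31 against -0.03 over all genes. Of the 11, Jun (-0.0032) and Jund (-0.0028) differed by almost nothing, and with spike-in scaling 3 factors were higher and 9 lower. Fos stood at 6.03, 5.60, 5.51 and 5.28 and Jun at 6.30, 6.12, 5.94 and 5.94. Etv4, an ETS factor of the PEA3 group, stood at 1.59, 1.56, 1.10 and 0.44 and was the 1 gene of the list at least 2-fold lower in OSKA + 4OHT than in OSK + 4OHT cells.

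Markers of other cells moved beside these genes. The summed level of the 5 osteoblast markers ranged from 24.3 to 35.4, that of the 5 chondrocyte markers from 17.2 to 22.4, that of the 6 epithelial markers from 2.30 to 3.99 and that of the 6 endothelial markers from 8.05 to 11.9. The fibroblast sum ranged from 1429 in OSK − 4OHT to 1631 in OSKA + 4OHT cells. With 4OHT in OSKA cells, 1 osteoblast marker (Alpl, from -3.08 to -1.58), 1 chondrocyte marker (Sox9, from -1.15 to -0.08) and 1 epithelial marker (Krt14, from -2.10 to -0.78) were at least 2-fold higher. In the same comparison 1 osteoblast marker was higher and 2 lower, 2 chondrocyte markers were higher and 2 lower, and 3 epithelial markers (Krt8, Krt18 and Krt14) were higher and 2 (Epcam and Cdh1) lower. The osteoblast sum was 30.7 without and 24.3 with 4OHT, and the chondrocyte sum was 17.2 on both arrays. Such sums add intensities and are set by the brightest markers. Most of the osteoblast sum was Spp1 (4.92 without and 4.57 with 4OHT). Most of the chondrocyte sum was Col2a1 (3.68 and 3.67). The epithelial sum was 2.30 without and 3.53 with 4OHT, with a median log2 difference of 0.56 over its 5 measured markers. The osteoblast genes Sp7 and Ibsp, the cartilage gene Matn1 and the endothelial genes Cdh5, Tie1 and Emcn were not above background on any array. The other markers of these lists were measured: Runx2, Alpl, Spp1, Col2a1, Sox9, Comp, Pecam1, Kdr and Tek on all 4 arrays and Acan on 3. The part of such cells in the levels of the proteases was not tested.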

How the data were processed

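RNA (100 ng) of 4 cultures was hybridised by the authors to single-colour Agilent arrays, scanned and quantified with Agilent Feature Extraction 10.7.3.1, per the labels. The deposited files hold spot intensity values (background-subtracted processed signal) and marks such as well above background; the deposited series table differs from them by a ratio of 0.995 to 1.005. From there, control and outlier-marked spots were left out, log2(processed signal) was scaled to each array's 75th percentile, and spots of a probe were averaged (Python 3.11.15, numpy 2.4.6, pandas 2.3.3). A gene is its probe with the highest mean level. Differences are given where both arrays were well above background. Where only 1 was, the other array enters with its own value or, if higher, its lowest level well above background, as "at least N-fold". The software error combines the scanner software's errors of the 2 arrays. The calculation was tested on simulated data. Accessions of 27503 of 55681 probes (49.4%), among them 59 of the 66 member probes, matched RefSeq, whose symbol was then used; this renamed 0 member probes, and other probes kept the symbol of the files. Probe positions are those of the files (NCBI37), with no gene model of that build used. Every member measured is described by role, with full values for those at least 2-fold apart in a comparison, the 2 highest and lowest differences of each comparison and the Timp genes. The members and all lists were chosen with earlier results of these data known. Alternatives were no filter, normexp (offset 50) with quantile normalization (limma 3.58.1, R 4.3.3), scaling on the 258 spike-in spots well above background, the mean of a gene's probes, the series table and a 1.5-fold threshold. The number of arrays (1 for each group) limits precision, and no replicate error exists.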

Additional observations from a re-analysis of the deposited data

Results flagged for a closer look

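The 4OHT effects of 3 members had opposite directions in OSKA and OSK cells and lay at least 2-fold apart, as log2 effect in OSKA minus effect in OSK cells: Adamts4 by 1.01, Mmp15 by 1.24 and Adamts8 by -1.48. The effects were 0.79 and -0.23 for Adamts4, 0.69 and -0.55 for Mmp15, and -0.39 and 1.09 for Adamts8. With 1 array for each group the difference was not tested. The share of all genes that met the same rule was not counted, so these 3 cannot be called more or fewer than usual. The second Adamts4 probe gave 0.74 and -0.47, and the second Adamts8 probe gave bounds of 2.24 and -0.53, opposite in sign to the first. With spike-in scaling the effects were 0.80 and -0.54 for Adamts4, 0.71 and -0.86 for Mmp15, and -0.38 and 0.77 for Adamts8. Normexp correction followed by quantile normalization gave 0.74 and -0.21 for Adamts4, 0.25 and -0.17 for Mmp15, and -0.13 and 0.37 for Adamts8, so that none of the 3 pairs lay 2-fold apart. The offset of that setting shrinks the differences of dim probes such as those of Mmp15 and Adamts8. The number of members with opposite effects 2-fold apart thus moved with the processing. It was 6 with spike-in scaling, where Adamts3 (0.62 and -0.67), Adamts15 (0.55 and -0.71) and Adamts17 (0.26 and -0.85) joined the 3, and 0 with normexp and quantile normalization. The second Adamts17 probe gave 0.05 and 0.19 with the main scaling, in the same direction. The number was 8 without the filter on dim probes, 4 with the mean of all probes of a gene and 3 with the series table.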

How the results depend on the processing

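Without replicates, the stability of a difference between cultures cannot be judged, and dim genes are the least precise. The number of members at least 2-fold changed was 0 for 4OHT in OSKA cells, 1 for 4OHT in OSK cells and 2 each for AKT-MER without and with 4OHT. Without the filter on dim probes it was 3, 5, 5 and 6, and at 1.5-fold 4, 4, 8 and 8. No share over all genes was counted for these settings, so the larger counts are not read as a result about the members. With normexp and quantile normalization the number was 0, 0, 0 and 1, the last being Adamts4. The 2 steps were not run apart, and the part of each was not tested. Normexp here added an offset of 50 intensity units to every spot, which shrinks the differences of dim probes. For such probes this setting cannot decide whether a 2-fold call holds. With spike-in scaling the number was 0, 1, 4 and 3, and the median moved to -0.28 for 4OHT in OSK cells and to -0.28 for AKT-MER without 4OHT. This scaling shifts all genes alike, by -0.31 and -0.44 in these 2 comparisons. The series table and the mean of all probes gave the reported counts. Of 118 single differences, 30 took the other direction with spike-in scaling, none of them over 0.31 in size, 7 with normexp (up to 0.07) and 5 with the mean of probes (up to 0.23). No difference of 2-fold or more reversed under these settings. The mean of probes leaves out a probe that was not measured on both arrays. It could therefore not show the opposite reading of the second Adamts8 probe. No paired analysis was possible because each group has 1 array.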
